A study of Mus musculus with 66 samples.

Results

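The genes described here encode the subunits of the proteasome. They were chosen by name: protein-coding mouse genes whose symbol is Psma, Psmb, Psmc, Psmd, Psme, Psmf or Psmg followed by a number, without the immunoproteasome genes Psmb8, Psmb9 and Psmb10. The rule found 46 of the 39179 genes in the count tables. They are 8 alpha and 8 beta subunits of the 20S core, 6 ATPases, 3 other base subunits and 8 lid subunits of the 19S regulatory particle, 3 chaperones of the 19S base, 4 chaperones of the 20S core, 5 activator genes and 1 inhibitor. RNA was sequenced from BC57, a mouse bladder cancer cell line grown in DMEM with 10% serum, and from mouse normal urothelium, the bladder's inner epithelium, taken from 9 mice. Each was kept either fresh frozen (FF) or fixed for 24 hours in formalin and embedded in paraffin (FFPE), and RNA was extracted with a kit for frozen material or one for FFPE material accordingly. The 66 libraries form 22 groups of 3 repeat libraries. Ovation SoLo libraries, made by random priming, used 50 pg, 250 pg or 2 ng of total RNA from all 4 samples, SMARTer Pico libraries, made by template switching, used 250 pg or 2 ng of the same samples, and poly(A)-enriched libraries used 1 µg of the FF samples alone. BC57 is a single line, no source used here says how the 9 mice were combined, and no label names a culture or mouse for a library. The design text speaks of 4 samples in triplicate, so the 3 libraries of a group were taken here as repeat preparations. Every p-value then measures the spread between these libraries, which may be technical.

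The proteasome is the main protease of the cytosol and nucleus and degrades proteins that carry ubiquitin chains. Its barrel-shaped 20S core is built of outer rings of alpha subunits, which gate the entrance, and inner rings of beta subunits, of which Psmb5, Psmb6 and Psmb7 carry the chymotrypsin-like, caspase-like and trypsin-like active sites. The 19S particle caps the core: its base holds a ring of ATPases (Psmc genes) that unfold substrates, and its lid holds the deubiquitinase Psmd14 that removes the ubiquitin chain. The subunits are needed in fixed ratios, and the transcription factor Nfe2l1 (NRF1) is known to raise many of their genes together when proteasome activity falls short.

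Because these genes are known to be controlled together, their promoters were searched for 4 short motifs. RefSeq windows on GRCm38.p6, from 250 bases before to 50 bases after a transcription start, were held for 38 of the 46 genes. The windows of Psma8, Psmb1, Psmb2, Psmb7, Psmc3, Psmd3, Psmd7 and Psmg2 were not used here. Both strands were searched, and the motifs were the antioxidant response element bound by Nfe2l1 (TGACNNNGC), the CCAAT box (CCAAT), the ETS core (CCGGAAG) and the ATF/CREB core (TGACGTCA). The letters of the first and the last can coincide in part. The antioxidant response element was found in 6 of the 38 genes (15.8%), against 14% of 27018 genes with a window. Among those 6 were 2 of the catalytic subunits, Psmb5 and Psmb6, given here with 60 bases upstream of or reaching their start, 5′ to 3′ on the gene's strand and with the element in capitals. Psmb5 lies on the minus strand at chr14:54618009-54618068, and Psmb6 on the plus strand at chr11:70525297-70525356.
Psmb5: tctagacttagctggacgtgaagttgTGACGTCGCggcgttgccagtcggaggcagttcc
Psmb6: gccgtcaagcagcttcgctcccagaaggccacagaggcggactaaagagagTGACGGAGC

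The ETS core was found in 14 of the 38 genes (36.8%), against 9.93% of all genes with a window. That background was not limited to protein-coding or expressed genes, as most members are, and the difference was not tested. It was held by 4 of 6 lid genes, 3 of 5 ATPases, 2 of 3 other base genes, 2 of 3 chaperones of the 20S core, 2 of 5 activators and 1 of 7 alpha subunits, and by no beta subunit with a window. The CCAAT box was found in 13 genes (34.2%, against 41.1%) and the ATF/CREB core in 0 (against 2.03%). In the poly(A) comparison described next, the median log2 difference between BC57 and urothelium was 1.19 over the 14 genes with an ETS core and 1.21 over the 23 tested genes without one. The following 60-base stretches, all on the plus strand, are from 3 regulatory-particle genes, Psmd2, Psmd11 and Psmc2. Of the genes with a core upstream of their start, these had the largest poly(A) log2 differences, 1.87, 1.59 and 1.59. Others differed less, down to 0.55 for the lid gene Psmd6. The capitals mark CTTCCGG, the reverse complement of the ETS core. They lie at chr16:20651592-20651651 for Psmd2, chr11:80428555-80428614 for Psmd11 and chr5:21785164-21785223 for the first of the RefSeq starts of Psmc2. A match describes the letters of a window and does not show that a factor binds there.
Psmd2: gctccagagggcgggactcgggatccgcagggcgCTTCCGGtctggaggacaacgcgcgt
Psmd11: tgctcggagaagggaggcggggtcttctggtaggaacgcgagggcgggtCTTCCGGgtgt
Psmc2: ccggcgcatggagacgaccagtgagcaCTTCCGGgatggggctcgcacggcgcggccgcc

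Depth differed between kits: Ovation libraries held 928722 to 4706030 counts, SMARTer libraries 651879 to 7152648, and poly(A) libraries 18499591 to 36187226. The FFPE urothelium libraries numbered 3 of the SMARTer kit stood apart. They held 651879 counts at 250 pg and 780106 at 2 ng, and their TMM scaling factors were 2.26 and 2.30, against 0.779 to 1.16 in the other 22 SMARTer libraries. Counts of called members in the contrasts that use them, and their shares and spread, are given with and without them. Levels below are counts relative to the library total (CPM), scaled by TMM over all libraries of a kit.

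In the deepest libraries, those with poly(A) enrichment, proteasome genes were higher in BC57 than in urothelium almost without exception. Of 45 members tested, 44 were called higher and 1 lower by edgeR's quasi-likelihood test at a Benjamini-Hochberg adjusted p under 0.05. This was a comparison in which most genes were called: 91.3% of all genes tested, 42.8% higher and 48.5% lower. The median log2 difference was 1.21 over the members and -0.12 over all genes. The members together took 0.804% ± 0.0051 (SD, n = 3) of the counts in BC57 and 0.36% ± 0.0022 (SD, n = 3) in urothelium.

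Among the alpha subunits of the core, 7 of 8 rose, with a median over the tested members of 1.31 on the log2 scale. Psma4 (chr9:54950790-54958030, mm10) rose most of all members. Its level was 330.4, 331.3 and 317.3 CPM in the 3 BC57 libraries and 86.4, 81.6 and 83.4 CPM in urothelium, a log2 difference of 1.91 ± 0.04 (SE) with an adjusted p of 1.7e-20. The groups lay far apart, as they did for every member of the alpha and beta rings named in this paragraph. The catalytic beta subunits rose by unequal amounts. Psmb7 (chr2:38588036-38644087), the trypsin-like subunit, was at 283.8, 282.7 and 297.1 CPM in BC57 and 73.1, 75.5 and 73.9 CPM in urothelium, a log2 difference of 1.90 ± 0.04. Psmb6 (chr11:70525367-70527858), the caspase-like subunit, was at 200.6, 180.9 and 200.9 CPM against 78.6, 83.3 and 84.8 CPM, a difference of 1.18 ± 0.05. The smallest difference of the 7 beta subunits tested was that of Psmb5 (chr14:54614119-54618022), the chymotrypsin-like subunit. Its libraries read 110.2, 100.7 and 102.2 CPM in BC57 and 57.7, 62.1 and 65.5 CPM in urothelium, a log2 difference of 0.70 ± 0.05 with an adjusted p of 2.25e-11.

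All 17 genes of the 19S particle rose, 6 ATPases with a median of 1.21, 3 other base subunits with 1.05 and 8 lid subunits with 1.44. Psmd2 (chr16:20651652-20663414), a scaffold of the base that docks ubiquitin-binding proteins, had the highest level in CPM of all members. It was at 683.7, 663.3 and 688.1 CPM in BC57 and 170.6, 179.5 and 185.4 CPM in urothelium, a log2 difference of 1.87 ± 0.04. The ubiquitin receptor Psmd4 differed least among these base subunits, at 181.0, 176.2 and 182.7 CPM against 81.5, 86.4 and 87.8 CPM, a difference of 1.02. The ATPases spanned a log2 difference of 0.82 for Psmc6 to 1.59 for Psmc2. Psmc2 read 289.6, 276.8 and 275.6 CPM in BC57 and 93.3, 86.8 and 89.98 CPM in urothelium, and Psmc6 read 152.1, 153.9 and 153.3 CPM against 92.9, 79.0 and 79.1 CPM. In the lid, the deubiquitinase Psmd14 (chr2:61711694-61800376) differed most, at 225.6, 226.0 and 226.3 CPM against 62.7, 59.3 and 58.6 CPM, a log2 difference of 1.85 ± 0.04 with an adjusted p of 2.95e-20. Psmd6, a structural lid subunit, differed least, at 97.3, 96.2 and 94.0 CPM against 65.1, 60.6 and 63.5 CPM, a log2 difference of 0.55. BC57 libraries were above urothelium libraries for all 17 genes.

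The chaperones, activators and inhibitor rose by less in several cases. The chaperones of the 19S base, which help to assemble the ATPase ring and do not stay in the finished particle, had a median log2 difference of 1.09. Psmd10, also known as gankyrin, had the smallest difference of all members that rose, at 31.1, 29.9 and 32.1 CPM in BC57 and 21.3, 23.9 and 22.1 CPM in urothelium, a log2 difference of 0.41 ± 0.06. Psmd5 had the largest of the 3, with 1.27. The 4 chaperones of the 20S core had a median of 1.34, from 0.91 for Psmg3 to 1.86 for Psmg2, whose libraries read 61.0, 63.7 and 61.0 CPM in BC57 and 17.2, 15.2 and 16.7 CPM in urothelium. Activators replace or accompany the 19S cap. The nuclear activator Psme3 was at 265.3, 274.7 and 260.7 CPM against 96.1, 100.4 and 102.7 CPM, a log2 difference of 1.36, and the cytosolic activator subunit Psme1 was at 95.2, 90.1 and 92.4 CPM against 59.1, 57.4 and 59.6 CPM, a difference of 0.60. Psme2b is an 837-base near copy of Psme2 that reached only 2.71 ± 0.27 CPM (SD, n = 3) in BC57, and how reads were shared between the copies is uncertain. Psmf1, an inhibitor of the core, was at 52.5, 51.3 and 51.95 CPM against 31.3, 32.4 and 34.3 CPM, a log2 difference of 0.61.

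Members with tissue-restricted roles behaved differently. Psma8, the alpha subunit of the testis form of the core, was the single member called lower in BC57, on few reads. It had 0, 0 and 2 counts in the BC57 libraries and 13, 10 and 14 in urothelium. The ratio of urothelium to BC57, from the summed counts and TMM-scaled library totals, was 19.7 with a 95% exact counting interval of 5.07 to 168.0, which covers counting error only. Psmb11, the beta subunit of the thymus form, had 0 counts in all 6 poly(A) libraries, which allows a level of up to 0.0892 to 0.17 CPM per library (3 counts, on the TMM-scaled totals), and passed the low-count filter in no comparison. Over all 66 libraries, Psma8 had counts in 16 libraries (96 counts) and Psmb11 in 9 libraries (74 counts). Of these, 27 and 42 counts came from the SMARTer FFPE libraries numbered 3 alone.

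**Figure D1:**
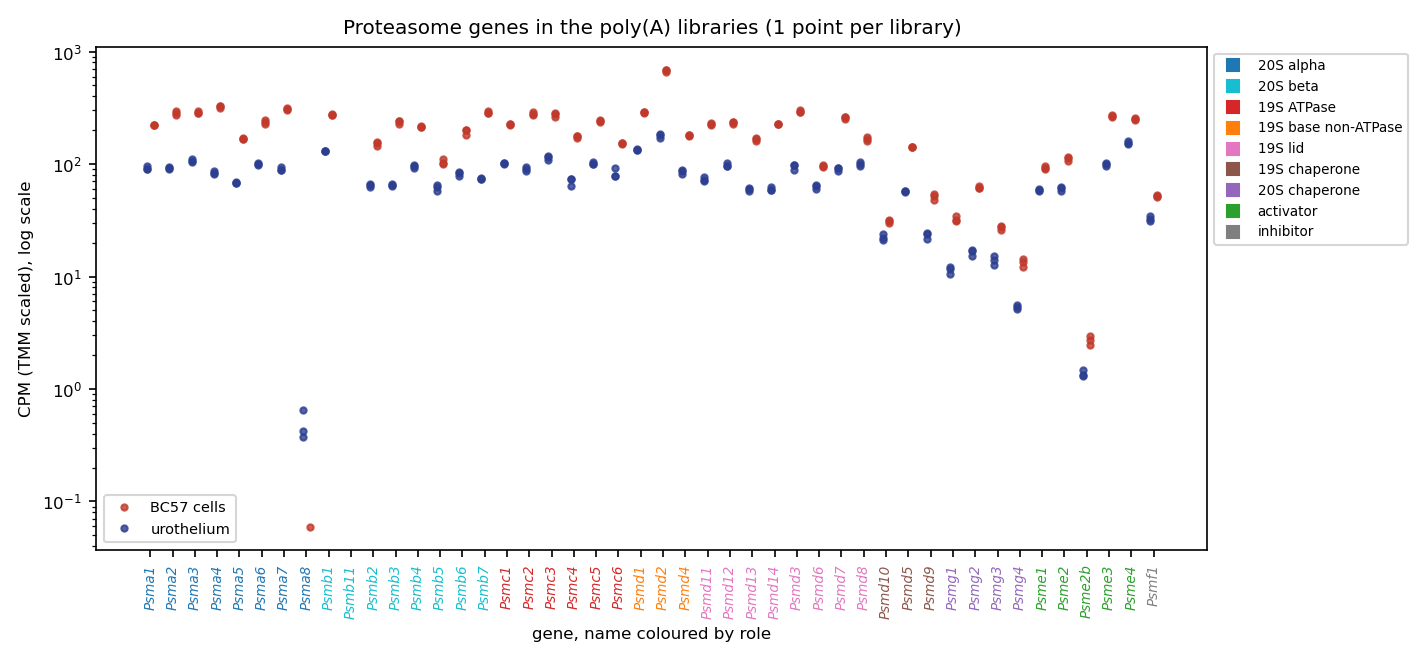
Level of each proteasome gene (horizontal) in the 6 poly(A) libraries (CPM, vertical log axis), 1 point per library. Gene names are coloured by role, and BC57 and urothelium points differ in colour. The BC57 points lie above the urothelium points for every gene drawn but Psma8. Libraries with 0 counts, 2 for Psma8 and all for Psmb11, cannot be drawn on this axis.

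Divided by exon length, the levels of the members in BC57 spread widely. The highest mean levels per kilobase in poly(A) libraries were those of Psma6 (191.1 CPM per kb), Psmc5 (174.2), Psmd2 (168.0) and Psma4 (137.7), and the lowest of members well detected there were those of Psme2b (3.24), Psmd9 (7.08), Psmf1 (8.06) and Psmg3 (9.43). After the copy gene Psme2b, the lowest levels per length were thus those of chaperones and of the inhibitor. The lengths are unions of all annotated exons, so a gene with long rarely used exons reads low.

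BC57 and urothelium also differ in the cells they hold. In the poly(A) libraries, the summed level of 10 urothelium markers was 3742 to 3974 CPM in BC57 and 11020 to 12180 CPM in urothelium. All 10 had at least 1 count in both, but they did not move together. In BC57, 2 were called higher, 7 lower and 1 was not called, with log2 differences from -15.31 to 2.33 and a median of -4.85. Of all genes, 42.8% were called higher and 48.5% lower. The summed level of 6 fibroblast markers was 6.35 to 8.73 CPM in BC57 and 9041 to 9856 CPM in urothelium. Corresponding ranges were 9.97 to 12.1 and 190.9 to 206.8 CPM for 5 smooth muscle markers, 0.745 to 1.02 and 195.3 to 203.3 CPM for 4 endothelium markers, and 10.1 to 11 and 305.1 to 327.7 CPM for 7 leukocyte markers. The 4 erythroid markers summed to 2.98 to 3.36 and 37.6 to 41.3 CPM (Hbb-bs and Hbb-bt at 0 in BC57), and the 3 skeletal muscle markers to at most 2.04 CPM in either (Myh4 at 0 in both). The part of other cell types in the difference was not tested, and in bulk RNA a change in the makeup of cells and a change in RNA per cell cannot be told apart.

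The genes that surround the proteasome did not all follow it. Among the immunoproteasome genes, whose products replace the catalytic beta subunits, Psmb8 and Psmb10 rose and Psmb9 fell. Psmb10 was at 57.9 ± 2.38 CPM (SD, n = 3) in BC57 and 16.98 ± 1.29 CPM in urothelium, a log2 difference of 1.71. Psmb8 was at 50.9 ± 3.29 CPM against 18.4 ± 0.489 CPM, a difference of 1.42, and Psmb9 at 12.3 ± 0.902 CPM against 14.2 ± 0.773 CPM, a difference of -0.25 with an adjusted p of 0.00351. Of 15 matched partners of the proteasome (16 were listed, and Paaf1 was not matched), 12 rose, 2 fell and Ubqln2 was not called. The 19S-bound deubiquitinases Uchl5 and Usp14 rose by a log2 difference of 2.19 and 1.86, and Pomp, which matures the core, rose by 0.85. The zinc-finger protein Zfand5 was lower by -1.24 and Akirin2, a factor in nuclear import of proteasomes, by -0.14. All 6 ubiquitin and ubiquitin-activating genes rose, with a median of 0.53. These counts stand against 42.8% of all genes called higher and 48.5% called lower in the poly(A) comparison.

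The 6 genes of the Nfe2l1 pathway were divided, with 3 higher and 3 lower. That split is near the one over all genes, of which 42.8% were called higher and 48.5% lower. Nfe2l1 itself was close in both samples, at 358.1, 347.4 and 358.1 CPM in BC57 and 361.1, 380.1 and 380.7 CPM in urothelium, a log2 difference of -0.13 with an adjusted p of 0.00257. Ddi2, the protease that cleaves the Nfe2l1 protein, stood out in the other direction from the subunits. It was at 67.5, 71.7 and 69.4 CPM in BC57 and 396.4, 397.3 and 401.6 CPM in urothelium, a log2 difference of -2.58 ± 0.04. Ngly1, which removes sugars from the Nfe2l1 protein, was at 13.05 ± 1.26 CPM (SD, n = 3) against 45 ± 1.74 CPM, a difference of -1.86. The segregase genes Vcp, Nploc4 and Ufd1 were higher in BC57, by 0.50, 1.501 and 0.10. Transcript levels say nothing of how the proteins were processed.

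The same contrast was run in each of the other 10 combinations of kit, preservation and input, and the members' median was above 0 in every one. Over the 11 contrasts there were 481 estimates for members, of which 372 were called and 8 were below 0, and the only lower call was that of Psma8. In FF samples, Ovation libraries gave 42 of 43 members higher at 2 ng (median 1.29, against 37.6% of all genes called higher), 32 of 44 at 250 pg (1.31, against 21.6%) and 32 of 43 at 50 pg (1.25, against 20.2%). SMARTer libraries from FF samples gave 40 of 44 at 2 ng (1.25, against 36.3%) and 38 of 44 at 250 pg (1.197, against 23.9%). In FFPE samples, Ovation libraries gave 41 of 43 at 2 ng (1.59, against 36.7%), 36 of 44 at 250 pg (1.52, against 24%) and 26 of 44 at 50 pg (1.34, against 14.7%). The share of members called was above the share of all genes called higher in each of these contrasts.

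In SMARTer libraries from FFPE samples the count of calls depended on single libraries. At 2 ng, 34 of 44 members were called higher (median 1.66, against 13.7% of all genes), and without the libraries numbered 3 of both samples 40 of 44 were (against 29.3%). From the 34 called with all libraries, the count was 12, 14, 18 and 15 without BC57 library 1, BC57 library 2, urothelium library 1 and urothelium library 2. The share of all genes called higher then also fell, to 3.01%, 3.15%, 4.45% and 4.03%. At 250 pg, 6 of 43 members were called (median 1.501, against 3.8% of all genes), and 15 without the libraries numbered 3 (against 8.78%). Leaving out urothelium library 3 gave 16 calls (9.02% of all genes called higher), leaving out urothelium library 2 gave 1 (0.479%), and leaving out urothelium library 1 or any 1 BC57 library gave 0 (0.238% to 1.17%).

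**Figure D2:**
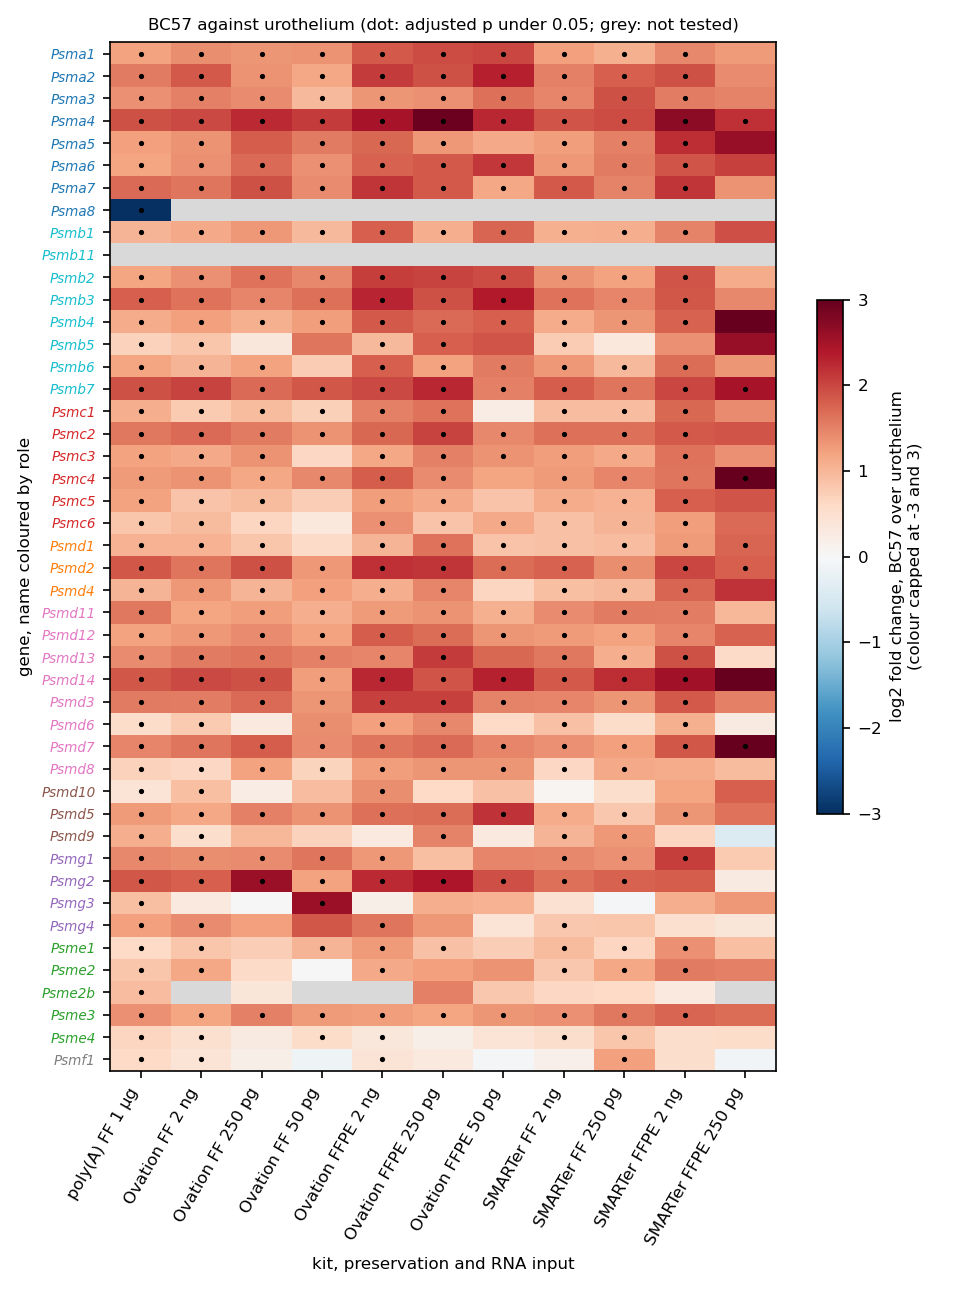
Log2 difference, BC57 minus urothelium, of each proteasome gene (vertical) in 11 combinations of kit, preservation and input (horizontal), with colour capped at -3 and 3, dots on calls and grey where a gene was not tested. Nearly all cells are on the BC57-higher side, and the SMARTer FFPE column at 250 pg has the fewest dots, with 6.

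A small set of members was called in every contrast. Of 43 members tested in all 11, 4 were called higher in all 11, namely Psma4, Psmb7, Psmd2 and the lid subunit Psmd7, which pairs with Psmd14. Another count gave 22 members called higher in 10 or more. The share of all genes called in as many contrasts was not counted, so these counts have no background. In single contrasts it ran from 3.8% of all genes called higher (SMARTer FFPE, 250 pg) to 42.8% (poly(A)). The set called in all 11 was limited by SMARTer FFPE libraries at 250 pg, where 6 members were called. After thinning to equal depth 0 were called there, so the set depends on that contrast. Psma4 had log2 differences from 1.88 to 2.94, Psmb7 from 1.51 to 2.47 and Psmd2 from 1.29 to 2.19. The fewest calls fell to Psmg3 (2 of 11), Psmd10 (3), Psmf1 and Psmg4 (4 each), and Psmb5 and Psmd9 (5 each). Psmb6 was called in 9 contrasts and Psmb5 in 5, although Psmb5 lay above 0 in all 11, with log2 differences from 0.32 to 2.61.

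The errors of Psmb5 were unequal between inputs. In Ovation FF libraries at 2 ng it was at 26.2 ± 7.02 CPM (SD, n = 3) in BC57 and 14.4 ± 2.11 CPM in urothelium, a log2 difference of 0.84 ± 0.22 (SE) with an adjusted p of 0.000708. At 250 pg it was at 26 ± 1.196 CPM against 19.7 ± 6.56 CPM, the groups overlapped, and the estimate of 0.35 ± 0.38 did not pass the test (adjusted p 0.484). At 50 pg it was at 30.9, 32.8 and 23.8 CPM in BC57 and 0, 22.7 and 4.29 CPM in urothelium, from 0, 77 and 11 counts. The groups did not overlap, yet the estimate of 1.60 ± 0.94 did not pass the test (adjusted p 0.183). In the same libraries Psmb7 gave 1.87 ± 0.31 with an adjusted p of 0.000206.

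The share of all counts that fell on the members gave the same order in every combination. In Ovation FF libraries it was 0.599% in BC57 and 0.238% in urothelium at 2 ng, 0.593% and 0.228% at 250 pg, and 0.573% and 0.237% at 50 pg. In Ovation FFPE libraries it was lower in both samples, 0.421% and 0.156% at 2 ng, 0.418% and 0.153% at 250 pg, and 0.408% and 0.155% at 50 pg. SMARTer libraries gave 0.513% and 0.217% (FF, 2 ng), 0.531% and 0.214% (FF, 250 pg), 0.393% and 0.148% (FFPE, 2 ng), and 0.395% and 0.151% (FFPE, 250 pg). Without library 3 the urothelium SMARTer FFPE shares were 0.159% at 2 ng and 0.152% at 250 pg. The 3 BC57 libraries were above the 3 urothelium libraries in all 11 combinations, and within a kit and preservation the share moved by little with input.

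Formalin fixation was tested at 2 ng as FFPE against FF within each sample and kit, and proteasome genes were mostly lower in FFPE. In Ovation libraries of BC57, 25 of 43 members were called lower and 0 higher (median -0.33), where 15.6% of all genes were called lower and 32.3% in either direction. In Ovation libraries of urothelium, 27 of 43 were lower and 1 higher (median -0.75), where 17.9% of all genes were lower and 37.3% called. SMARTer libraries of BC57 gave 15 of 44 lower (median -0.28, against 8.57% of all genes lower and 17.8% called). SMARTer libraries of urothelium gave 5 of 44 lower (median -0.73, against 0.551% lower and 1.87% called), namely Psmd3, Psmc3, Psmd7, Psme1 and Psma5. With limma on the deposited log2 values, 4 members were higher and 11 lower in BC57 Ovation libraries (39.1% of all genes called, with their median at 0.27), and 0 were called in the SMARTer libraries of BC57 (4.9% of all genes) or urothelium (0.296%).

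Regulatory-particle genes made up most of the calls. In Ovation libraries, 15 of 17 genes of the 19S particle were lower in BC57 and 15 of 17 in urothelium, all 6 ATPases in each, whereas 7 of 14 core genes were lower in BC57 and 10 of 14 in urothelium. No chaperone of the 20S core was called in any of the 4 contrasts. Psmd2 fell in both samples. In BC57 it was at 352.6, 327.1 and 373.7 CPM in FF and 206.6, 207.3 and 238.0 CPM in FFPE, a log2 difference of -0.68 ± 0.07, and in urothelium at 112.8, 110.8 and 114.4 CPM in FF and 51.4, 48.4 and 39.8 CPM in FFPE, a difference of -1.25 ± 0.12. No FFPE library reached the lowest FF library in either sample. The lid subunit Psmd12 was among the members that fell most in both, at -0.76 ± 0.08 in BC57 and -1.27 ± 0.14 in urothelium, and in urothelium the ATPase Psmc1 fell by 1.27 on the log2 scale. In BC57 the largest falls were those of Psmd12, Psmd13 and Psmc3, each at -0.76. Psmd9, the PDZ-domain chaperone of the base, was the single member called higher, in urothelium alone, with 14.3, 14.5 and 16.2 CPM in FF and 22.8, 15.1 and 28.6 CPM in FFPE (0.60 ± 0.23, adjusted p 0.0324). Its groups overlap, and its gene overlaps Hpd on the opposite strand. That call was lost with DESeq2, after thinning to equal depth and in 5 of 6 fits that left out 1 library.

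The other ends of the scale and the SMARTer libraries gave these values. After Psmd9, the highest estimates in Ovation libraries were those of Psmf1 and Psme2, at 0.17 and 0.12 in BC57 and 0.19 and 0.16 in urothelium, none called. In SMARTer libraries of BC57 the highest were Psmb2 (0.28), Psme2b (0.14) and Psmf1 (0.12), also not called, and the lowest Psme1 (-0.73), Psmc3 (-0.69) and Psmd7 (-0.63), all called. Psme1 was at 130.3, 149.1 and 188.5 CPM in FF and 81.7, 101.7 and 69.1 CPM in FFPE. In SMARTer libraries of urothelium the lowest estimates were those of Psmd4 (-1.42), Psma4 (-1.32) and Psma5 (-1.29), of which Psma5 alone was called. Psmd4 there was at 160.3, 152.0 and 148.0 CPM in FF and at 64.7, 62.8 and 10.6 CPM in FFPE, the last value being that of library 3. Without that library 25 members were called lower, where 13.8% of all genes were called lower. Without any 1 of the other 5 libraries 0 members were called, and at most 4 genes in all. DESeq2 called 16 members lower on all 6 libraries, where it called 1835 of 14512 genes in either direction. In SMARTer libraries of BC57 the count was 9 without FF library 1 or FF library 2, with 3.66% and 3.58% of all genes called lower.

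Of 43 members tested in Ovation libraries of both samples, 22 were called lower in both (of 10905 genes tested in both, 10.2% were), 3 in BC57 alone, 6 in urothelium alone (5 lower and Psmd9 higher), 12 in neither and 0 in opposite directions (0.468% of genes). Other genes shifted with fixation in the same libraries. The summed level of urothelium markers in urothelium was 7209 to 7512 CPM in FF and 4617 to 4816 CPM in FFPE, while that of fibroblast markers was 9164 to 9410 and 12520 to 12660 CPM. In BC57 the urothelium markers were at 2647 to 2870 CPM in FF and 1655 to 1773 CPM in FFPE. FF and FFPE RNA also came from different extraction kits, so fixation and extraction cannot be told apart, and the part of these shifts in the result was not tested.

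**Figure D3:**
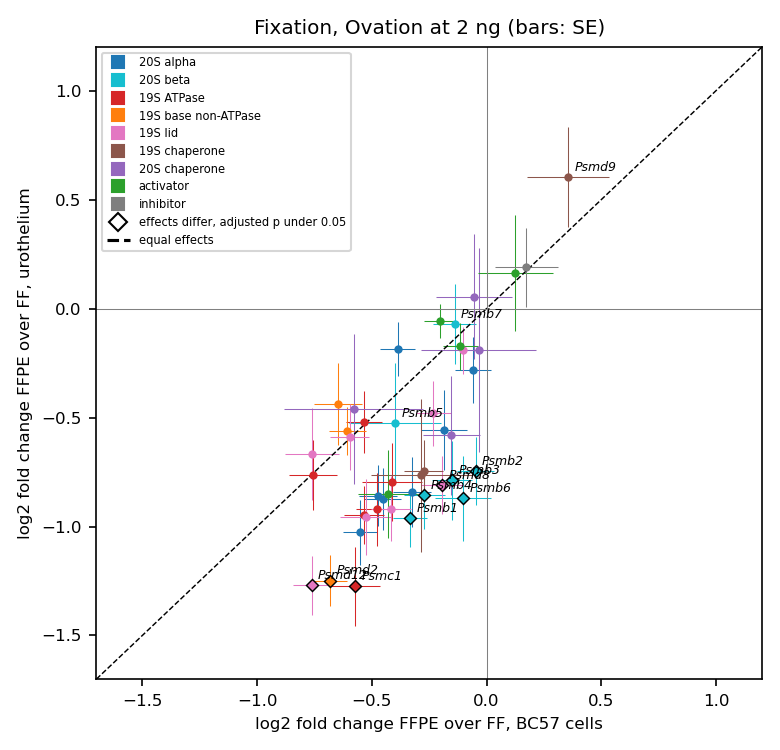
Log2 difference, FFPE minus FF in Ovation libraries at 2 ng, of each proteasome gene in BC57 (horizontal) against urothelium (vertical). Points are coloured by role, and bars are SE. Diamonds mark members whose effects differed between the samples in edgeR's interaction test at an adjusted p under 0.05. Most points are below 0 on both axes, with medians of -0.33 for BC57 and -0.75 for urothelium. Psmd9, called higher in urothelium by edgeR but not by DESeq2, is named beside its point.

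Whether fixation acted unequally on the samples was tested as an interaction term in Ovation libraries at 2 ng. The FFPE effect was less negative in BC57 than in urothelium for 9 of 43 members and more negative for 0, with a median of 0.36 over the members and 0.06 over all genes, of which 4.26% were called in that direction and 5.9% in either. Of the 9, 5 were beta subunits of the core (Psmb1, Psmb2, Psmb3, Psmb4 and Psmb6). Psmb2 was at 157.1, 140.9 and 142.8 CPM in FF and 142.0, 139.8 and 141.9 CPM in FFPE in BC57, and at 51.5, 64.7 and 52.3 CPM in FF and 25.04, 35.5 and 37.97 CPM in FFPE in urothelium. Its level was thus nearly level across fixation in BC57 and lower in each FFPE library of urothelium, a difference of effects of 0.67 ± 0.17 with an adjusted p of 0.00614. Psmb6 had the largest such difference, 0.74 ± 0.22, from 71.6, 65.0 and 59.6 CPM in FF and 64.9, 49.4 and 66.5 CPM in FFPE in BC57 and 34.7, 28.1 and 31.9 against 15.5, 18.8 and 16.5 CPM in urothelium. The lowest differences were those of Psmd9 (-0.28), Psmd4 (-0.24) and Psma3 (-0.23), none called. Fewer members were called without any 1 of 12 libraries, down to 5 without BC57 FF library 2, urothelium FFPE library 1 or urothelium FFPE library 3. In those 3 fits, 680 of 15213, 823 of 14675 and 785 of 14661 genes were called in either direction. With DESeq2 the count was 4 (2.93% of all genes), with scaling by total counts alone it was also 4 (2.95%), and after thinning to equal depth it was 3. The thinned fit called 561 of 13662 genes in either direction. Cell type markers were called in the same direction in this test: 5 of 10 for urothelium, with a median of 0.72, 1 of 5 for smooth muscle, with a median of 1.07, and 0 of 6 for fibroblasts, with a median of -0.05. Their part in the members' difference was not tested.

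Library kits gave offsets that differed widely between members. Ovation libraries (2 ng) were compared with poly(A) libraries (1 µg) of the same FF sample. In BC57, 7 members of 44 were higher and 26 lower with Ovation (median -0.19, against 59.9% of all genes called), and in urothelium 3 were higher and 30 lower (median -0.45, against 56.7%). After thinning all libraries to the depth of the shallowest, 2 were higher and 10 lower in BC57 and 1 and 9 in urothelium, with medians of -0.19 and -0.37. Calls over all genes also fell, to 2059 of 11544 in BC57 and 1965 of 12272 in urothelium. The activator subunit Psme2 was lowest in both. In BC57 it was at 30.7, 23.3 and 26.5 CPM with Ovation and 113.7, 106.8 and 116.3 CPM with poly(A), a log2 difference of -1.71 ± 0.10, and in urothelium the difference was -2.19 ± 0.14. Psmb5 followed with -1.65 and -1.95, and the next lowest was the ATPase Psmc5 in BC57 (-1.41) and Psmb6 (-1.21) or Psmc5 (-1.21) in urothelium. At the other end, the activator Psme4 (0.67 and 0.66), the lid subunit Psmd11 (0.46 and 0.71) and the chaperone Psmd5 (0.33 and 0.26) were higher with Ovation in both samples, and Psmc6 (0.34), Psmb2 (0.31), Psmd14 (0.22) and Psmd12 (0.20) were called higher in BC57. With the deposited log2 values and limma, 0 members were higher and 41 lower in BC57, Psmd11 and Psmc6 among those with a negative estimate, with 68.4% of all genes called and their median at -0.59. With total counts alone, 4 were higher and 32 lower, against 62.8% of all genes.

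SMARTer libraries were compared with Ovation libraries at 2 ng in the same FF samples. In BC57, 14 of 44 members were higher and 12 lower with SMARTer (median 0.10, against 52.9% of all genes called), and in urothelium 17 of 43 were higher and 11 lower (median 0.21, against 48.5%). This split depended on scaling. With total counts alone it was 10 higher and 24 lower in BC57 and 9 and 15 in urothelium, with 57.8% and 52.8% of all genes called and their medians at -0.34 and -0.31. With limma on the deposited values it was 18 and 2 in BC57 and 18 and 9 in urothelium, with 41.4% and 48.4% of all genes called. The lowest member was Psmb2 in both samples. Psmb2 was at 47.7, 43.03 and 46.3 CPM with SMARTer and at 157.1, 140.9 and 142.8 CPM with Ovation in BC57, a log2 difference of -1.63 ± 0.10 there and -1.57 ± 0.15 in urothelium. Psmd4 lay at the other end, at 241.3, 259.8 and 288.9 CPM with SMARTer and 97.0, 94.4 and 89.4 CPM with Ovation in BC57, a difference of 1.55 ± 0.09 there and 1.97 ± 0.12 in urothelium. Psme1 (1.495 and 1.43), Psme2 (1.08 and 1.48) and, in BC57, where it was tested, Psme2b (1.74) were also high with SMARTer, and the core chaperone Psmg2 (-0.89 and -0.72) and Psmb4 (-0.68 and -0.52) were low.

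For Ovation against poly(A), 29 of 44 members were called in the same direction in BC57 and urothelium and 0 in opposite directions, where 46.5% and 0.433% of all genes tested in both were. For SMARTer against Ovation, the numbers were 24 of 43 and 0, where 41.5% and 0.0996% of all genes were. Pearson's r of the offsets across the members was 0.909 and 0.937, as a description over genes, which are not independent replicates. Both comparisons use the same Ovation libraries. Input also differed between the Ovation and poly(A) libraries, so kit and input cannot be told apart there. Of the members, 11 overlap another protein-coding gene, 8 of them on the opposite strand, and the use of strand in counting is not given in the sources used here.

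**Figure D4:**
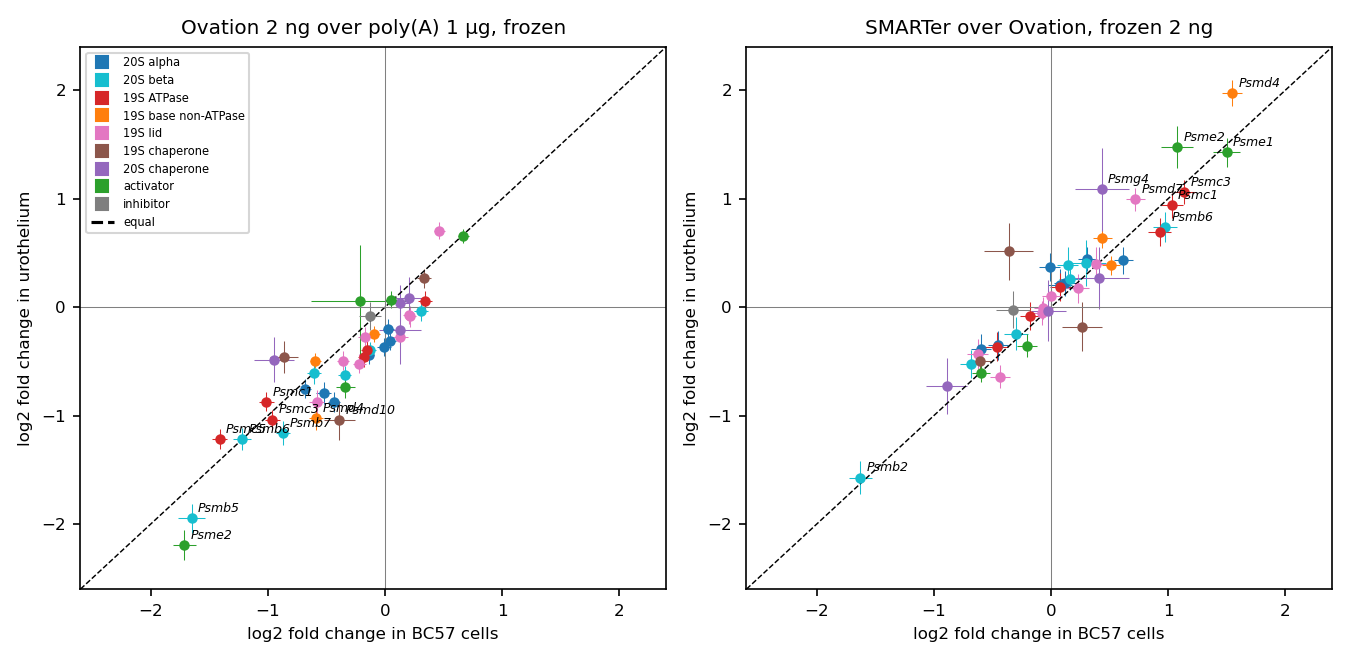
Log2 difference between kits for each proteasome gene in BC57 (horizontal) against urothelium (vertical), for Ovation minus poly(A) and SMARTer minus Ovation in FF samples. The points follow the diagonal, with Psme2 and Psmb5 lowest in the first panel and Psmb2 lowest and Psmd4 among the highest in the second.

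Lowering the input from 2 ng to 50 pg in Ovation libraries moved no proteasome gene past the test. By edgeR, 0 of 43, 43, 44 and 42 members were called in BC57 FF, urothelium FF, BC57 FFPE and urothelium FFPE, where 0.0266%, 0%, 0% and 0.0216% of all genes were called. At an unadjusted p under 0.05 there were 2, 4, 0 and 3 members. The share of all genes under that threshold was not counted, so these counts are not read as changes. DESeq2 called 0 members at an adjusted p under 0.05 in all 4 contrasts, against 0.311%, 0.18%, 1.33% and 0.165% of all genes. With limma on the deposited log2 values, 9 members were called lower in BC57 FFPE, where 10.4% of all genes were called and their median was -0.58, and 0 in the other 3. The medians over the members were 0.01, 0.02, 0.01 and 0.10. Single members moved widely where counts were low. In urothelium FF, the core chaperone Psmg3 was lowest (-2.10 ± 0.77), from 12, 5 and 2 counts at 50 pg, and Psme2 highest (1.00), at 40.3, 18.8 and 11.3 CPM at 50 pg. In urothelium FFPE, Psmc1 was highest (1.15 ± 0.33) and Psmd9 lowest (-1.06). In BC57 FFPE the extremes were Psmg3 (0.92) and Psmg4 (-1.06), and in BC57 FF they were Psmg4 (0.29) and Psmc6 (-0.40). With median standard errors of 0.145, 0.237, 0.201 and 0.368 in the 4 contrasts, changes of this size in a single member did not pass the test at this depth.

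The spread between repeat libraries differed between groups, and so did depth, from the 928722 counts of BC57 FF library 1 at 50 pg upward in Ovation libraries. Over the 43 members other than Psma8, Psmb11 and Psme2b, the median coefficient of variation was 2.51% in BC57 and 3.68% in urothelium with poly(A). With Ovation it was 7.67% (2 ng), 7.58% (250 pg) and 15.9% (50 pg) in BC57 FF, and 10.9%, 27.6% and 21.7% in urothelium FF. In the latter, library 3 at 250 pg held 13253 genes against 18223 and 17676 in the others, and its Psmd2 level was 38.8 CPM against 100.9 and 109.9 CPM. FFPE samples spread more at 50 pg, with 24.3% in BC57 and 38.6% in urothelium, against 7.1% and 15.4% at 2 ng. SMARTer libraries gave 7.49% and 10.7% (FF, 2 ng) and 10.6% and 18% (FF, 250 pg). With FFPE they gave 13.9% and 53.4% at 2 ng and 22.2% and 77.8% at 250 pg, where the urothelium groups include the libraries numbered 3. Without library 3, the other two urothelium libraries gave 12.3% at 2 ng and 43.5% at 250 pg. Of the 43 members, 8 had 0 counts in at least 1 urothelium SMARTer FFPE library at 250 pg, and 1 without library 3. Urothelium spread more than BC57 in all 11 combinations when all libraries were used. At 2 ng in SMARTer FFPE libraries, the 12.3% of urothelium without library 3 was below the 13.9% of BC57. That sets 2 urothelium libraries against 3 of BC57, whose spread without its own library 3 was not computed. The spread that counting alone would give was also higher in urothelium in all 11. In Ovation FF libraries at 2 ng the counting spread was 9.81% and the observed 10.9% in urothelium, against 5.84% and 7.67% in BC57.

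**Figure D5:**
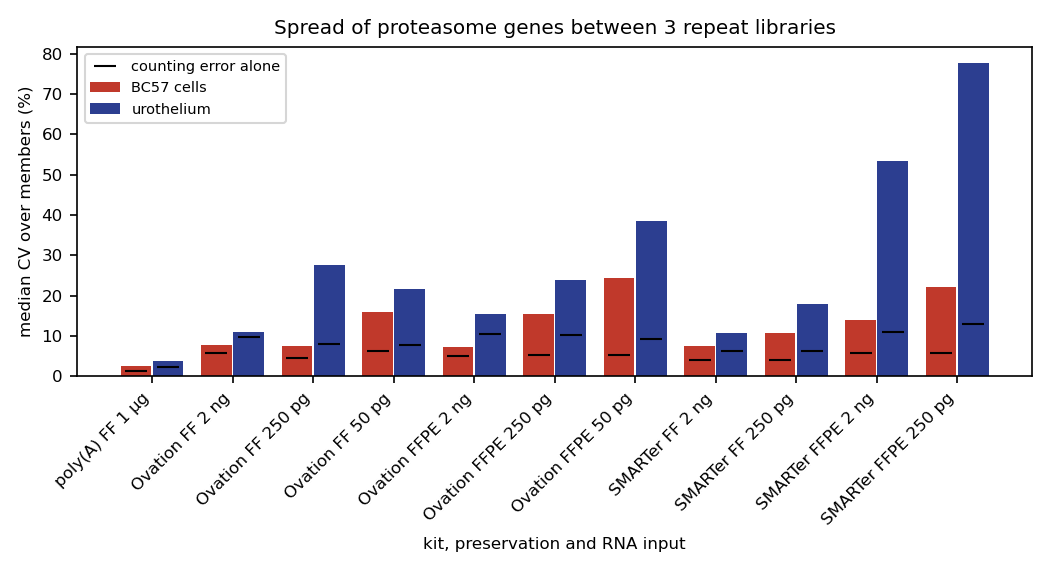
Median coefficient of variation (percent) between the 3 repeat libraries, over the proteasome genes other than Psma8, Psmb11 and Psme2b. Each of the 22 groups has a bar, with a tick at the median spread that counting alone would give. The poly(A) groups sit lowest, at medians of 2.51% and 3.68%, and the urothelium SMARTer FFPE groups highest, at 53.4% and 77.8%.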

How the data were processed

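Counts and log2 values were analysed for 66 libraries. The authors deposited raw counts per gene, made with STAR, SAMtools and featureCounts on mm10 per the submitters' processing notes (versions not listed). The annotation and the strand setting used for counting are not known from these sources. The authors' deposited log2 values equal, to within 5.33e-14, the log2 of 1 plus each count times 1000 over the library's upper quartile of nonzero counts.

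Identifiers were matched to GENCODE M21 (37693 of 39179 genes). The 1486 others took at most 2.471% of a library. Each of 24 comparisons used filterByExpr, TMM and edgeR's quasi-likelihood test (edgeR 4.0.16, R 4.3.3) on the groups compared, with Benjamini-Hochberg adjustment over all genes and a call at an adjusted p under 0.05. The alternatives were DESeq2 1.42.0, limma 3.58.1 on the deposited values, other scalings, no low-count filter, a replicate block, libraries left out and thinning to equal depth. Scaling by total counts alone was added after seeing the data. The edgeR step was tested on simulated data. Libraries of a number do not share a stated source. Their deviations correlated above 0.1 for all 3 numbers in 2 of 29 group pairs, the BC57 and urothelium SMARTer FFPE groups at 2 ng and BC57 SMARTer FFPE and FF at 2 ng. Of the 3 libraries of the other group, the best correlated bore the same number in 52 of 87 cases. Libraries of a number may thus share more than these 2 pairs show, and the main fits used no block.

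The members and the lists of pathway and marker genes were chosen with earlier results of these data known. Named genes are the catalytic subunits, the highest and lowest of each role with poly(A), members that were filtered out or against the majority, and elsewhere the 3 highest and 3 lowest. Any other gene was named after its values were seen. CPM values were scaled within a kit, and intervals and floors cover counting error only.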

Additional observations from a re-analysis of the deposited data

Results flagged for a closer look

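The effect of fixation in Ovation libraries at 2 ng differed between BC57 and urothelium for 9 proteasome genes, by edgeR's quasi-likelihood test of the interaction at a Benjamini-Hochberg adjusted p under 0.05, where 4.26% of all genes were called in that direction and 5.9% in either. The count was 4 with DESeq2 (2.93% of all genes), 4 with scaling by total counts alone (2.95%) and 3 after thinning to equal depth. The thinned fit called 561 of 13662 genes in either direction. In the same test 5 of 10 urothelium markers were called in that direction, with a median of 0.72, and their part in the result was not tested. The values are the FFPE minus FF difference in BC57 less that in urothelium, on the log2 scale. They were 0.60 for Psmb1, 0.67 for Psmb2, 0.61 for Psmb3, 0.56 for Psmb4 and 0.74 for Psmb6 among the beta subunits of the core. They were 0.67 for the ATPase Psmc1, 0.54 for the base scaffold Psmd2, and 0.48 and 0.59 for the lid subunits Psmd12 and Psmd8. Psmb1 was at 204.5, 193.6 and 193.2 CPM in FF and 153.0, 160.6 and 152.9 CPM in FFPE in BC57, and at 80.6, 104.3 and 79.1 CPM in FF and 49.8, 46.9 and 36.1 CPM in FFPE in urothelium. It was lower in all FFPE libraries of both samples, and by more in urothelium. Psmd8 was at 109.2, 116.8 and 123.0 CPM in FF and 108.4, 100.6 and 94.0 CPM in FFPE in BC57, and at 82.7, 66.7 and 72.3 CPM against 41.2, 42.5 and 40.2 CPM in urothelium. The adjusted p-values ran from 0.00585 for Psmd2 to 0.0435 for Psmc1.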

How the results depend on the processing

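Of the recomputed counts of called members, 281 stayed within 1.5 times the reported one and 39 did not, and the split of SMARTer against Ovation turned with scaling, as given with the results. That rule ignores direction and keeps 0 against 0. Of the recomputed medians of the members, 277 moved by less than the spread of their median level between repeat libraries, and 43 did not. For BC57 against urothelium in SMARTer FFPE libraries at 250 pg, the median was 1.501, 2.18 with limma and 2.06 with the replicate block. Single values were recomputed for Psmb5, Psmb6 and Psmb7 in every contrast of BC57 against urothelium. With poly(A), the highest and lowest member of each role were included too. Of these values, 602 kept their side of the threshold, 20 lost a call and 6 gained one. An estimate that changed sign without a call in either fit was counted as kept. The counts that moved follow, and the cause was not tested. For BC57 against urothelium in SMARTer FFPE libraries, leaving out 1 library gave 12 to 36 members at 2 ng (34 reported) and 0 to 16 at 250 pg (6 reported). At 250 pg the count was 14 with DESeq2, 13 with no low-count filter, 15 without the libraries numbered 3, 0 after thinning to equal depth and 3 with the replicate block, the pairing being by number alone. In that order, 2549 of 13267, 2058 of 26475, 2963 of 13821, 925 of 8754 and 878 of 13267 genes were called. The reported fit called 1244 of 13267 genes. For FFPE against FF, limma gave 15 members in BC57 Ovation libraries (4 higher and 11 lower, 25 lower reported, with the median of all genes at 0.27) and 0 in BC57 SMARTer libraries (15 reported, 9 to 16 with 1 library left out, 21 with the replicate block). In BC57 SMARTer libraries the replicate block called 3215 of 12859 genes, where the reported fit called 2291. In urothelium SMARTer libraries (5 reported), DESeq2 gave 16, and no low-count filter, limma, the replicate block and thinning gave 0, with 0 to 25 when 1 library was left out. There the reported fit called 271 of 14512 genes and DESeq2 1835 of 14512. No low-count filter, limma, the replicate block and thinning called 85 of 33350, 43 of 14512, 76 of 14512 and 3 of 10068 genes. For 50 pg against 2 ng in BC57 FFPE, limma gave 9 (0 reported), where it called 1337 of 12817 genes. For Ovation against poly(A), thinning to the depth of the shallowest library gave 12 in BC57 and 10 in urothelium (33 reported in each), from fewer reads. Of all genes, 2059 of 11544 and 1965 of 12272 were then called. The interaction of fixation and sample (9 reported) gave 4 with DESeq2, 4 with total counts alone, 3 after thinning, 11 with the replicate block and 5 to 7 with 1 library left out. For the interaction, the replicate block called 1001 of 14527 genes and the reported fit 857. Scaling by total counts alone put the median of all genes between -0.49 (BC57 against urothelium, SMARTer FFPE at 2 ng) and 0.39 (FFPE against FF, urothelium SMARTer), and the members' shifts are to be read against it.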
